A study of Mus musculus with 5 samples.

Results

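The 5 libraries of the series, labelled as mouse visceral fat, were split by a gene of the epididymis, the coiled duct that lies against the gonadal fat of males. The sets were chosen by the level of Gpx5 (ENSMUSG00000004344), a secreted glutathione peroxidase, in CPM (counts scaled to a common library total). The 3 libraries at 1000 CPM or more are called epididymis-rich, and the 2 libraries under it epididymis-poor. These names stand for the level of Gpx5 alone, since other genes of the duct, such as Crisp1 and Pax8, were high in a poor library. Gpx5 was at 29812 CPM in control 1, 31116 in diabetes 1 and 55412 in curcumin-treated 2, the rich libraries. It was at 0.0788 CPM (2 counts) in diabetes 2 and 19.6 CPM (545 counts) in curcumin-treated 1, the poor libraries, so the values just inside and just outside the threshold were 29812 and 19.6. All 5 libraries of the series belong to one of the sets.

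All mice were male C57BL/6. The control group (n = 1 library) had standard chow, no streptozotocin, and vehicle for 28 days from 11 weeks of age. The diabetes group (n = 2) received streptozotocin, a toxin of insulin-producing beta cells, by intraperitoneal injection of 70 mg/kg at 2 days of age. This group also had a high-fat diet (60% of kcal as fat) for 8 weeks from 3 weeks of age. Vehicle was given to it for 28 days from 11 weeks of age. The curcumin-treated diabetes group (n = 2) had the same streptozotocin and diet, and curcumin, a polyphenol of turmeric, by gavage at 50 mg/kg daily for 28 days from 11 weeks of age. The rich set holds 1 library of each group and the poor set 1 of diabetes and 1 of curcumin-treated diabetes, so the split crosses the treatments and has no poor control. The labels do not tie libraries to animals, so libraries of 1 group may or may not be different mice. Total counts ran from 25378046 to 42422890 per library, and a gene at 0 may still have up to 3 counts (0.0707 to 0.118 CPM, counting error only).

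The principal cells of the epididymis secrete proteins that coat and mature sperm, among them lipocalins, beta-defensins, cystatins and cysteine-rich secretory proteins. Many of these genes need androgen, and many are switched on in only a stretch of the duct, from the initial segment and caput through the corpus to the cauda, whose muscle coat is thickest. Clear and narrow cells acidify the lumen, basal cells line its base, and sperm fill it. Visceral fat is made of adipocytes with macrophages, fibroblasts, vessels and a mesothelial cover.

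Because the sets were cut by a value measured in the libraries themselves, no test was run between them, and every gene is described by its values. Values of the rich libraries are given in the order control 1, diabetes 1, curcumin-treated 2, and those after "against" in the order diabetes 2, curcumin-treated 1, unless a library is named beside its value. A gene was called separated when its lowest value in one set was at least 2 times its highest in the other, on CPM with 0.5 added, among the 18954 genes with at least 1 CPM in 2 libraries. By that rule 1523 genes (8.04%) were higher in the rich libraries and 1103 (5.82%) lower. Gene lists are counted over all their members, and a member under this filter counts as not separated, while the shares of all genes are of those that passed it. Against diabetes 2 alone these counts were 3813 (20.1%) and 2814 (14.8%), and against curcumin-treated 1 alone 1779 (9.39%) and 2143 (11.3%). Without the margin, 22.6% of genes had every rich library above both poor ones and 23.1% had every rich library below them. The median difference of all these genes, rich minus poor on the log2 scale, was -0.01. Calls and the ranking of genes by gap use CPM with 0.5 added, while a gap printed beside a gene is the plain ratio of its nearest CPM values, so the 2 can order low genes differently. In bulk RNA, fewer cells of a type and less RNA per cell cannot be told apart.

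The upstream sequences of 3 epididymal genes that separated the sets, and of Akr1b7, which was instead high in 1 poor library, show what the steroid response and core promoter motifs searched for look like in these genes. Each run is the 250 bases before the annotated start, from RefSeq on build GRCm38.p6, in transcript direction, with base -1 next to the start. Capitals mark a match to AGAACA (a hexamer of steroid hormone response elements, read on both strands, so that its complement reads TGTTCT) or TATAAA (the TATA box, read on the transcript strand).
Gpx5 promoter, chr13:21292687-21292936, minus strand: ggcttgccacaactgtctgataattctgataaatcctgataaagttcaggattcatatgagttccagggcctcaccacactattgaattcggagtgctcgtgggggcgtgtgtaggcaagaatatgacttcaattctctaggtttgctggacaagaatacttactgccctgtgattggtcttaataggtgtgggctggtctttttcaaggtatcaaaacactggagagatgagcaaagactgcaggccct
Lcn5 promoter, chr2:25657702-25657951, plus strand: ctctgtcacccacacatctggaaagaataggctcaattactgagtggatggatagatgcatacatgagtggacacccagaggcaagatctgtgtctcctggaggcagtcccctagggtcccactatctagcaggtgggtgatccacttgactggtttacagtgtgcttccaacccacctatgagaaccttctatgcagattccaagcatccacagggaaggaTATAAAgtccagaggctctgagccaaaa
Crisp4 promoter, chr1:18145903-18146152, minus strand: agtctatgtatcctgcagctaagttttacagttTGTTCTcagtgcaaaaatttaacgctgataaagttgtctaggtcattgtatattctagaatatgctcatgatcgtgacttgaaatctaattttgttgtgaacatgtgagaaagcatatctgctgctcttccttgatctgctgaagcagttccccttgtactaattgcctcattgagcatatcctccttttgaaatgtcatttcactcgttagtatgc
Akr1b7 promoter, chr6:34412112-34412361, plus strand: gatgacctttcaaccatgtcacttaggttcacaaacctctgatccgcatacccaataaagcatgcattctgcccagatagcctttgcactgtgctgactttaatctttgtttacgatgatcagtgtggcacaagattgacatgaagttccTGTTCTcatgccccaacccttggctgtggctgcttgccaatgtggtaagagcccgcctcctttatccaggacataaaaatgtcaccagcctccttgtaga

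The Lcn5 match begins at -28, that of Crisp4 at -217 and that of Akr1b7 at -100, and the Gpx5 window holds neither motif. AGAACA stood in 8 of 19 promoters of the epididymal secretory list (42.1%, 18 of 24 genes matched) and in 8 of 18 promoters of the beta-defensin list (44.4%, 17 of 22 genes matched). It stood in 16.1% of all 32851 promoters of the same length, in 2 of 28 of the adipocyte list (7.14%) and in 3 of 31 of the sperm list (9.68%). TATAAA stood in 10.5% of the secretory list's promoters, 16.7% of the defensin list's, 3.57% of the adipocyte list's and 7.59% of all. The TATA box stood in none of the 31 promoters of the sperm list. An ETS factor motif and a PPAR direct repeat were also searched for. Neither stood in any promoter of the secretory, defensin, adipocyte or sperm lists. Of all promoters, 2.88% held the ETS motif and 0.0335% the PPAR repeat, so their absence from lists this small says little. All of these are matches of letters, not sites of binding, and genes of a cluster can share sequence.

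Of the 12 named genes ranked highest by gap (with 0.5 added) above both poor libraries, 10 were members of the epididymal secretory and defensin lists. The 24 secretory genes include Gpx5, which chose the sets and so had to differ. Of them 22 were separated and higher in the rich libraries, beside 8.04% of all genes, and none lower. The list's median difference was 10.09 on the log2 scale. Without Gpx5 these values were 21 of 23 and 10.08. The list took 8.29% of counts in control 1 (95% Wilson interval 8.28% to 8.30%), 8.04% in diabetes 1 (8.03% to 8.06%) and 12.0% in curcumin-treated 2 (11.9% to 12.0%). Gpx5 gave 36.0%, 38.7% and 46.4% of those counts, and without it the shares were 5.31%, 4.93% and 6.41%. The list took 13 counts in diabetes 2, with 18 of 24 members at 0. In curcumin-treated 1 it took 0.614% (0.611% to 0.617%), of which Crisp1 alone gave 97.2%. Each of the other 4 markers given for these libraries (Lcn8, Lcn5, Spag11b and Crisp4), cut at 100 CPM, picked the same 3. They were chosen with earlier results of these data known, so this is no independent check.

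**Figure D1:**
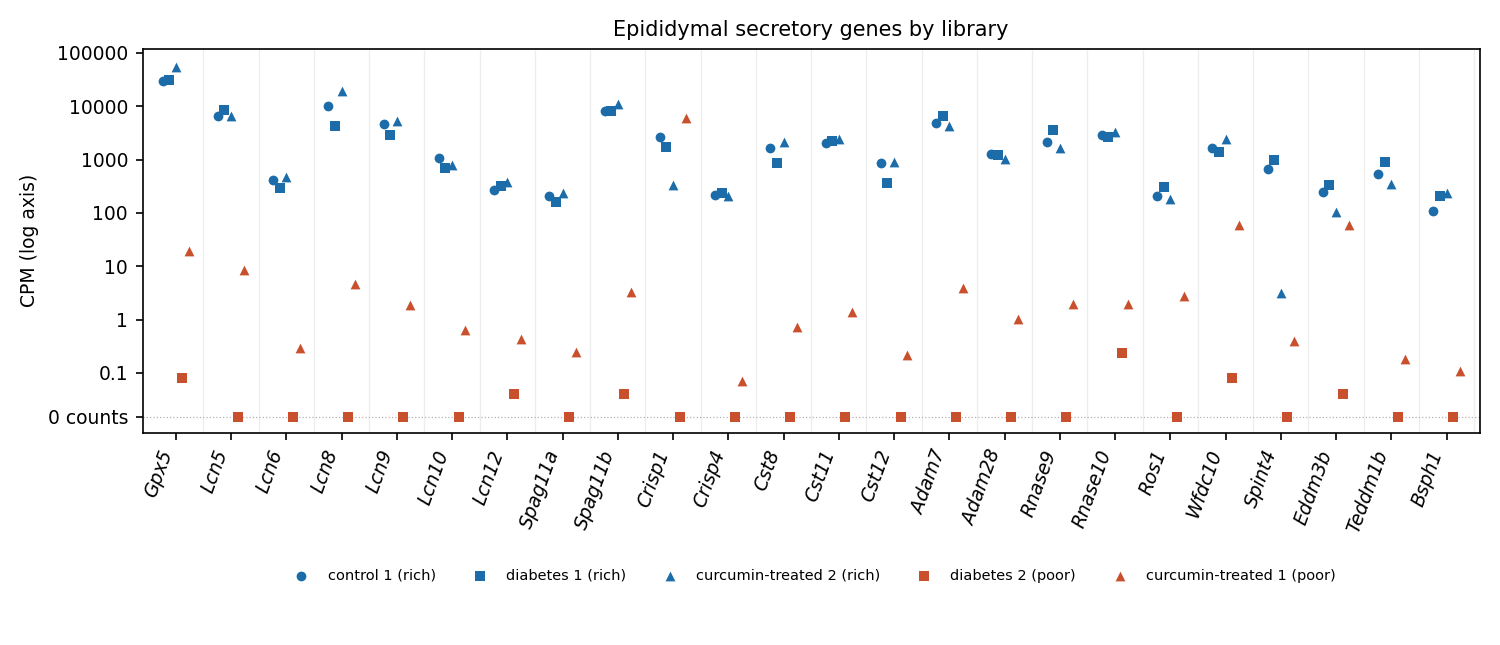
CPM of 24 epididymal secretory genes (log axis) in each of the 5 libraries, rich in blue and poor in orange, with libraries at 0 counts on the dotted line; every point is 1 library. The blue points stand above the orange ones for all genes but Crisp1, where curcumin-treated 1 is highest, and Eddm3b and Spint4 show the narrowest of the other gaps.

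Among the lipocalins, small carriers of lipophilic molecules, Lcn8 stood at 10028, 4297 and 19664 CPM in control 1, diabetes 1 and curcumin-treated 2. It was at 0 in diabetes 2 and 4.57 CPM in curcumin-treated 1, a gap of 941 times between the nearest libraries. Lcn5, which carries retinoic acid, stood at 6554, 8664 and 6709 CPM against 0 and 8.41. Both genes were within a 5-fold range among the rich libraries and far from both poor ones, as were Lcn6, Lcn9, Lcn10 and Lcn12, all 4 of them separated. Lcn9 had the largest gap of the family, 1550 times, with 4590, 2953 and 5343 CPM against 0 and 1.91.

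Spag11b, which encodes a defensin-like sperm-binding peptide, was at 8046, 8276 and 10935 CPM in the rich libraries. It was at 0.0394 CPM in diabetes 2 and 3.31 in curcumin-treated 1, a gap of 2433 times. Crisp4, a cysteine-rich secretory protein of the epididymis, was at 217, 232 and 207 CPM against 0 and 0.0719. The last value is 2 counts, so its gap of 2878 times has a counting interval from 797 to 23765. The rich libraries lay within 1.12-fold of each other for Crisp4 and within 1.36-fold for Spag11b.

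A cystatin, an ADAM family gene and a ribonuclease family gene of the secretory list followed the same split. Cst11, a cystatin, was at 2085, 2273 and 2472 CPM against 0 and 1.40. Adam7, a sperm-membrane ADAM protein without protease activity, was at 4895, 6637 and 4334 against 0 and 3.88, and Rnase10, which takes part in sperm maturation, at 2836, 2649 and 3280 against 0.236 and 1.98. These genes were named for their large gaps, so no rich library could overlap a poor one. Every rich library also stood above both poor ones for 22.6% of all genes. Clu, which encodes the abundant luminal chaperone clusterin and is no member of the list, was at 9623, 18307 and 10463 CPM against 208 and 522, a gap of 18.4 times. Among genes outside the lists, 9230110F15Rik (871, 945 and 1021 CPM against 0 and 0.324) and 9230113P08Rik (865, 1730 and 1485 against 0 and 0.467) were also among the 12 ranked highest by gap.

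Beta-defensins are small cationic peptides that bind microbes and the sperm coat. Of 22 epididymal members, 19 were higher in the rich libraries, beside 8.04% of all genes, and none lower, with a median difference of 7.51. The list took 1.58%, 1.45% and 2.06% of counts in control 1, diabetes 1 and curcumin-treated 2. Diabetes 2 had 0 counts for all 22 genes, which allows up to 3 counts, and curcumin-treated 1 had 0.080% (0.0790% to 0.0811%), of which Defb42 gave 83.7%. Defb20 was at 4256, 2885 and 5834 CPM against 0 and 1.83, and Defb41 at 681, 838 and 1032 against 0 and 0.180, the latter a gap of 3788 times. Near-identical defensins may share reads, so the split between single members is less certain than their sum.

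Members that left the pattern did so in curcumin-treated 2 or curcumin-treated 1. Defb22, which encodes a major glycoprotein of the sperm coat, was at 447 CPM in control 1, 57.2 in diabetes 1 and 0.519 in curcumin-treated 2, against 0 and 0.0719 in the poor libraries. Defb38 was at 39.7, 49.6 and 0.0943 CPM against 0 and 0. Spint4, a Kunitz-type protease inhibitor, was at 652, 980 and 3.21 CPM against 0 and 0.396, and was still separated. For these genes curcumin-treated 2 lay nearer to the poor libraries than to the other rich ones, although it had the highest Gpx5, Lcn8 and Spag11b of all. Defb28 (407, 251 and 55.9 CPM against 0 and 41.0) and Eddm3b (248, 335 and 104 CPM against 0.0394 and 59.9) missed the margin because curcumin-treated 1 came close.

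Crisp1, the secreted protein that binds sperm along the duct, ran across the split. The rich libraries had 2610 (control 1), 1700 (diabetes 1) and 334 CPM (curcumin-treated 2), against 5965 CPM in the poor library curcumin-treated 1 and 0 in diabetes 2. Its highest library was therefore a poor one. The poor libraries also differed from each other at low levels. A set of 33 secretory and defensin genes was picked for being over 100 CPM in every rich library, with Gpx5 among them. Of these, curcumin-treated 1 had none at 0 and 31 above 3 counts, and diabetes 2 had 27 at 0. For those 31 genes the mean of the rich libraries was a median of 1313 times the value in curcumin-treated 1. The ratio ran from 0.259 (Crisp1) to 4730 (Defb41), and the source of these traces was not tested.

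Genes of the acid-secreting clear and narrow cells separated as well. Of 9 members 7 were higher in the rich libraries, beside 8.04% of all genes, with a median difference of 2.41. Of the 9, 8 passed the filter on low values. Foxi1, the transcription factor of such cells, was at 48.8, 69.4 and 46.8 CPM against 0 and 1.58. Atp6v1g3, a subunit of the proton pump, was at 29.2, 22.9 and 36.0 against 0 and 0.863. Both genes were over 20 times higher in every rich library than in either poor one, with gaps of 29.6 and 26.5 times. The exceptions were Slc4a9, under 1 CPM in all 5 libraries, and Dmrt2, at 31.6 CPM in diabetes 2 and 6.15 to 7.81 in the other 4.

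General epithelial genes split the libraries elsewhere. Only 3 of 24 (Elf3, Krt7 and Krt18) were separated from both poor libraries, all higher, beside 8.04% of all genes. All 24 were higher in the rich libraries than in diabetes 2, beside 20.1% of all genes, but 3 were higher and 2 lower than in curcumin-treated 1, beside 9.39% of all genes higher and 11.3% lower. The list took 0.444%, 0.477% and 0.463% of counts in the rich libraries, 0.299% (0.296% to 0.301%) in curcumin-treated 1 and 0.00292% (0.00272% to 0.00314%) in diabetes 2. Epcam, an adhesion protein of epithelia, was at 409, 393 and 281 CPM in the rich libraries, 196 in curcumin-treated 1 and 0.118 in diabetes 2. Krt19, a keratin of ductal epithelium, and Elf5, a transcription factor of secretory epithelium, were highest in curcumin-treated 1, at 433 and 55.9 CPM, against at most 213 and 8.37 in the rich libraries. Basal cell genes did likewise. Of 10 members 7 were higher than in diabetes 2, beside 20.1% of all genes. Higher than in both poor libraries were 2 (Krt14 and Krt15), beside 8.04%. Krt5 was at 60.8, 46.9 and 53.7 CPM in the rich libraries, 49.9 in curcumin-treated 1 and 0 in diabetes 2.

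Duct transcription factors placed curcumin-treated 1 with the rich libraries for some genes, with diabetes 2 for others and apart from all 4 other libraries for a few. Pax8, needed to form the duct, was at 241, 136 and 166 CPM in the rich libraries and 160 in curcumin-treated 1. Pax2, its relative in the same duct, was at 120, 106 and 46.3 CPM in the rich libraries and 126 in curcumin-treated 1. Both were at 0 in diabetes 2. Etv4 and Etv5, ETS factors of the initial segment that respond to luminal growth factor, were the 2 of 16 members higher in the rich libraries than in both poor ones, beside 8.04% of all genes. Etv5 was at 284, 231 and 305 CPM against 14.3 in diabetes 2 and 27.9 in curcumin-treated 1.

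Hox genes, which mark position along the body and the duct, pointed the other way. Hoxa10 was at 66.0 CPM in curcumin-treated 1 and 0.0394 to 3.18 in the other 4 libraries. Hoxa11 was at 62.3 CPM there and at most 0.864 elsewhere, and Hoxd10 at 34.8 and at most 2.38. Hoxd9, in contrast, was at 115, 61.6 and 126 CPM in the rich libraries, 60.7 in curcumin-treated 1 and 2.40 in diabetes 2.

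**Figure D2:**
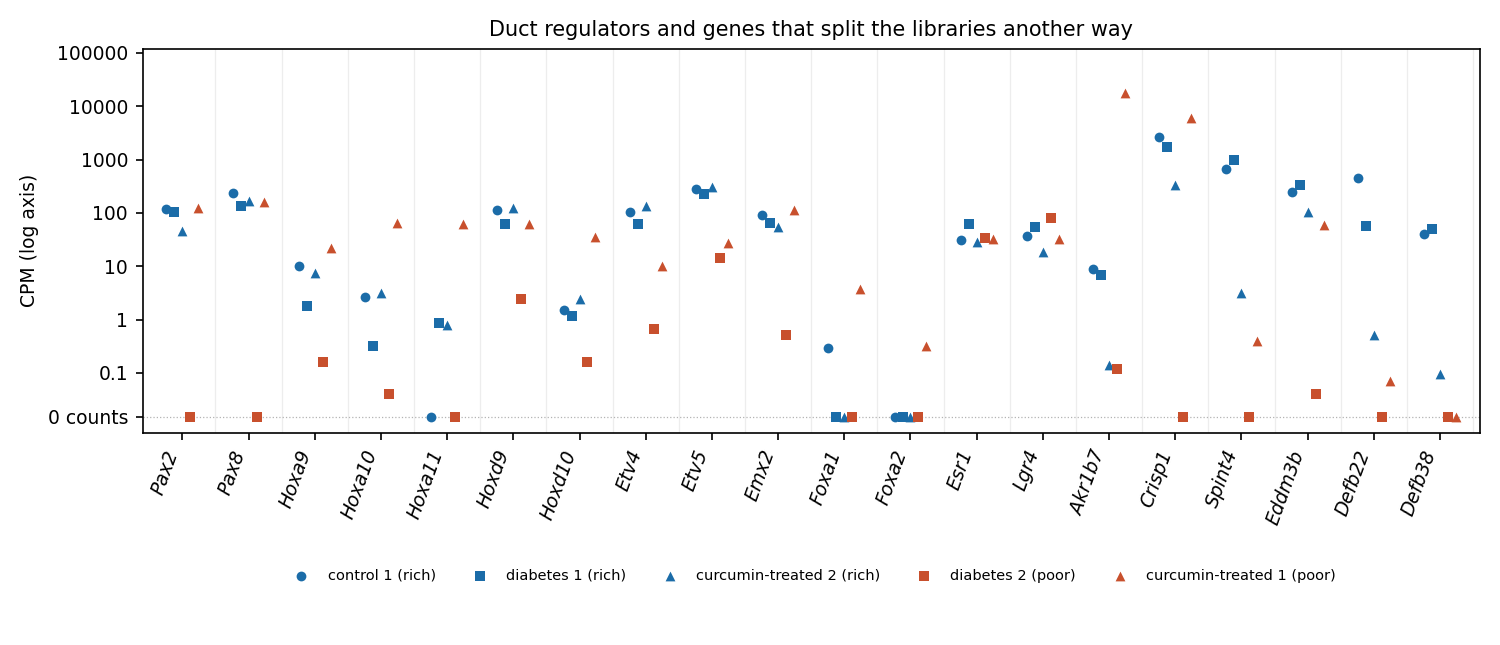
CPM (log axis) of 14 of the 16 duct transcription genes, then of 6 genes named after their values were seen, 1 point per library, rich in blue and poor in orange. The 6 were named because they left the pattern of the other epididymal genes. Among them Spint4 was still separated, with curcumin-treated 2 far below the other rich libraries. Pax2 and Pax8 are at 0 only in diabetes 2, Hoxa10, Hoxa11 and Hoxd10 are highest in curcumin-treated 1, and Akr1b7 is at 17874 CPM in curcumin-treated 1 against at most 8.70 elsewhere.

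Akr1b7, an aldo-keto reductase known from the vas deferens and the adrenal, led curcumin-treated 1 with 17874 CPM, the most of any gene there. It was at 8.70, 6.76 and 0.141 CPM in control 1, diabetes 1 and curcumin-treated 2, and at 0.118 in diabetes 2. Of its relatives, Akr1b8 was lower in the rich libraries, at 2.29, 1.93 and 1.91 CPM against 50.2 and 38.2, a gap of 16.6 times. Akr1b3 (7.62, 7.78, 15.7, 9.71 and 18.8 CPM in control 1, diabetes 1, curcumin-treated 2, curcumin-treated 1 and diabetes 2) and Akr1b10 (at most 42.3 CPM outside curcumin-treated 1, 128 in it) were not separated.

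Transcripts of spermatids and sperm were higher in the rich libraries for 14 of 25 members, beside 8.04% of all genes, and lower for none. Of the 25, 20 passed the filter on low values. The list's median difference was 2.57. Prm2, a protamine that packs sperm DNA, was at 57.1, 56.4 and 59.6 CPM against 0.315 in diabetes 2 and 0.108 in curcumin-treated 1. Smcp, of the mitochondrial capsule of the sperm tail, was at 57.8, 43.2 and 54.9 CPM against 0.0788 and 0.0719, a gap of 548 times with a counting interval from 152 to 4524. Odf1, of the outer dense fibres, was at 53.1, 43.1 and 56.2 CPM against 0.0788 and 0.503. The rich libraries lay close together for all 3 genes, within 1.34-fold. Prm1 was at 0 in all libraries but curcumin-treated 1, where it had 0.0360 CPM, and Odf2, which many tissues express, was at 51.1, 60.6 and 53.2 CPM against 36.4 and 46.2. Odf2 gave 88.2% and 86.0% of the list's counts in the poor libraries.

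Other male organs had 1 separated gene each in lists of 14. Only 6 of the Leydig and Sertoli genes and 3 of the seminal vesicle and prostate genes passed the filter on low values. Of all genes past it 8.04% were higher, and lists with so few members past the filter say little beside that share. Of 14 genes of the Leydig and Sertoli cells of the testis, 1 was separated, Cyp17a1, a steroidogenic enzyme, at 33.6, 27.8 and 7.64 CPM against 0.158 and 1.15. The Leydig cell gene Insl3 was at most 2.44 CPM and the Sertoli cell genes Amh and Fshr at most 1.01. Inha, an inhibin subunit also made outside the testis, was at 42.3, 22.4 and 31.3 CPM against 1.06 and 19.1 and was not separated. Of 14 genes of seminal vesicle and prostate only Spink5, a protease inhibitor of many epithelia, was separated, at 396, 759 and 402 CPM against 0 and 0.719, while the 7 seminal vesicle secretory genes Svs1 to Svs6 were under 0.5 CPM in every library.

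**Figure D3:**
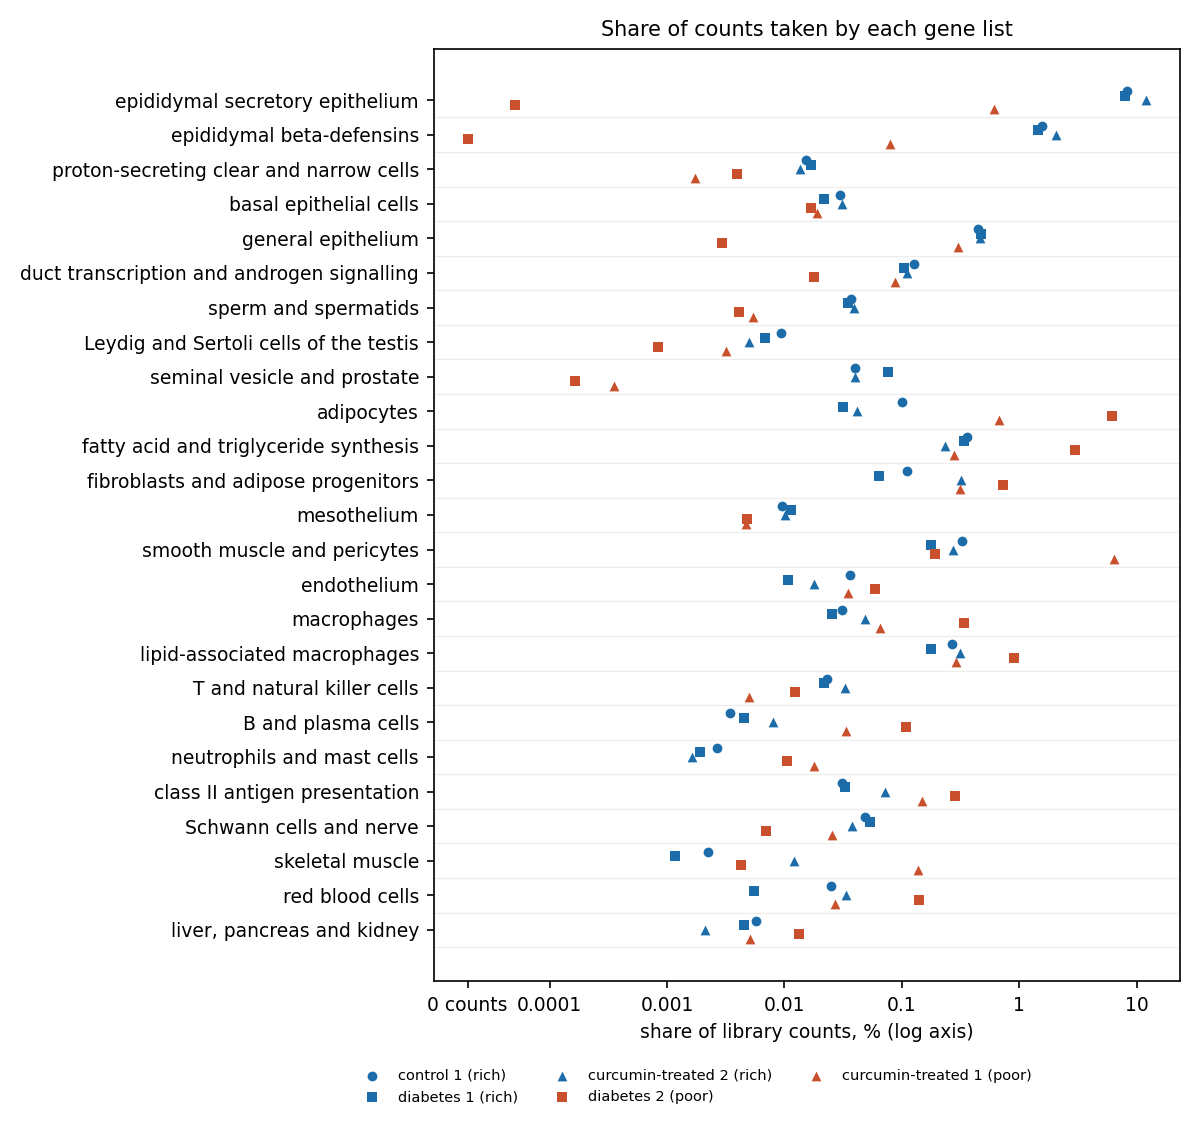
Share of library counts (percent, log axis) taken by each of 25 gene lists, 1 point per library, rich in blue and poor in orange. Epididymal lists stand furthest to the right in the 3 rich libraries, adipocyte genes are highest in diabetes 2 at 6.14%, and smooth muscle genes are highest in curcumin-treated 1 at 6.38%.

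Adipocyte genes ran opposite to the epididymal ones. Of 28 members 25 were lower in the rich libraries than in both poor ones, beside 5.82% of all genes, and none was higher, with a median difference of -5.41. The list took 6.14% of counts in diabetes 2 (6.13% to 6.15%) and 0.669% in curcumin-treated 1 (0.666% to 0.672%). It took 0.1% (0.0988% to 0.101%) in control 1, 0.0319% (0.0312% to 0.0326%) in diabetes 1 and 0.0417% (0.0411% to 0.0423%) in curcumin-treated 2. The 3 rich libraries carry the label visceral fat with the adipocyte list at or below 0.1% of counts, and in diabetes 1 5 of the 28 genes were at 0, among them Pparg, the master regulator of fat cell formation.

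Lep, which encodes leptin, was at 10.3, 3.69 and 7.19 CPM in the rich libraries, 5454 in diabetes 2 and 241 in curcumin-treated 1, a gap of 23.4 times. Adipoq, which encodes adiponectin, was at 15.1, 1.34 and 1.41 CPM against 1610 and 180. Plin1, which coats the lipid droplet, was at 8.03, 2.32 and 1.44 CPM against 1504 and 106. For all 3 genes diabetes 2 was highest, curcumin-treated 1 between, and control 1 the highest of the rich libraries. Lpl, the lipase of blood triglyceride, led diabetes 2 together with the desaturase Scd1, at 14802 and 23746 CPM. Acvr1c, Adig and Gpd1 were the adipocyte genes that did not separate, each with curcumin-treated 1 near the rich range.

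Synthesis of fatty acids and triglycerides is shared by fat and epithelium, and its 17 genes were divided. Scd1 and Me1 were lower in the rich libraries, and Elovl6, which lengthens fatty acids, was higher, at 236, 261 and 224 CPM against 31.2 and 42.8. Against diabetes 2 alone, 11 were lower in the rich libraries, beside 14.8% of all genes. Against curcumin-treated 1 alone, 2 were lower and 2 higher, beside 11.3% and 9.39% of all genes. Fasn, the fatty acid synthase, was at 363, 336 and 178 CPM in the rich libraries, 242 in curcumin-treated 1 and 1904 in diabetes 2.

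The 12 named genes ranked highest by gap below both poor libraries were not all adipocyte genes. Bmp3, a secreted member of the bone morphogenetic protein family, was at 0, 0.393 and 0.306 CPM in the rich libraries, 95.1 in diabetes 2 and 175 in curcumin-treated 1. Synpo2, an actin-binding protein of muscle, was at 18.5, 7.66 and 11.4 CPM against 746 and 1220. Hp, the haptoglobin made by fat and liver, was at 22.5, 11.6 and 14.1 CPM against 8504 and 830. Of the 3, Hp was about 10 times higher in diabetes 2 than in curcumin-treated 1, whereas Bmp3 and Synpo2 were higher in curcumin-treated 1. Saa3 and Orm1, acute phase proteins, and Kcnk3, Adam23 and Sfrp5 also stood among the 12.

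**Figure D4:**
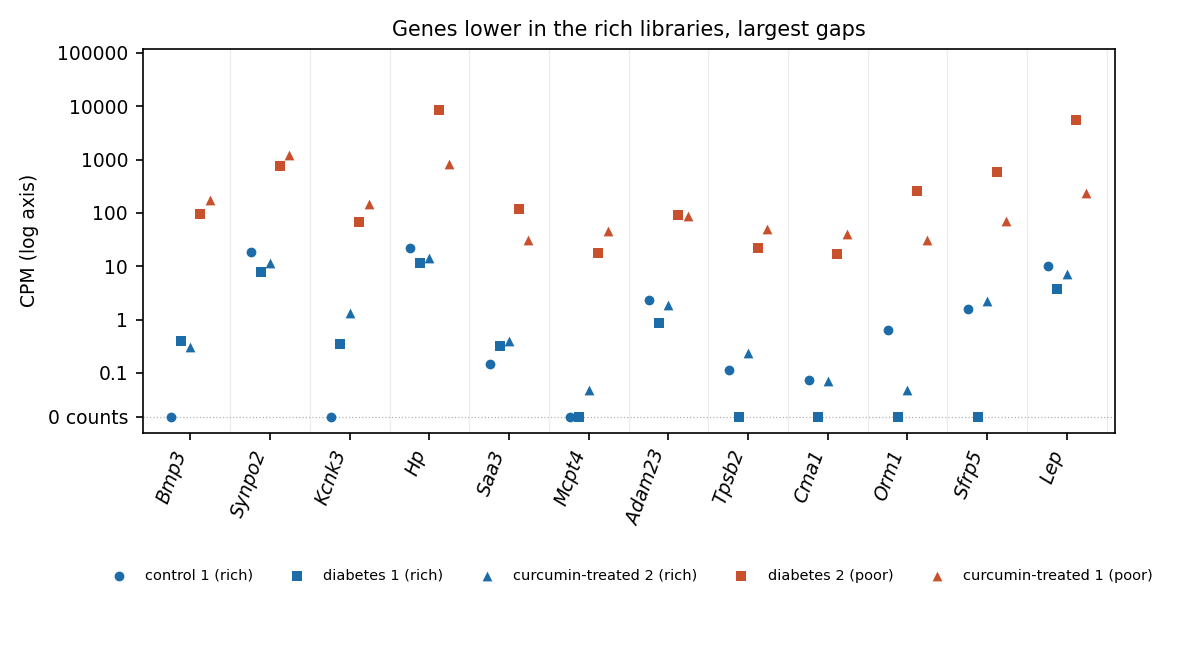
CPM (log axis) of the 12 named genes ranked highest by gap below both poor libraries, 1 point per library, rich in blue and poor in orange, with 0 counts on the dotted line. By the choice of these genes all rich points lie below all poor points. Bmp3, first by rank, is at most 0.393 CPM in the rich libraries and Lep, last by rank, at most 10.3, while Hp reaches 22.5.

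Mast cell proteases (Mcpt4, Tpsb2 and Cma1) were among those 12. Mcpt4 was at 0, 0 and 0.0471 CPM in control 1, diabetes 1 and curcumin-treated 2, and at 17.4 CPM in diabetes 2 and 46.7 in curcumin-treated 1. Its highest rich value is 2 counts, so the gap of 369 times has a counting interval from 102 to 3044. Tpsb2, a tryptase, was at 0.111, 0 and 0.236 CPM against 22.1 and 51.0, and Cpa3, a carboxypeptidase of mast cell granules, at 0, 0 and 0.141 against 9.54 and 14.9. In all of these curcumin-treated 1 was above diabetes 2. Kit, the growth factor receptor of mast cells, which other cells also carry, did not separate, at 24.1, 18.8 and 14.3 CPM against 9.62 and 22.04. Of the 12 neutrophil and mast cell genes 5 were lower, beside 5.82% of all genes, and none higher, the fifth being the neutrophil gene S100a8, at 0 in all rich libraries.

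Macrophage genes were lower chiefly against diabetes 2. Of 20 members 17 were lower in the rich libraries than in diabetes 2, beside 14.8% of all genes, and 3 (Adgre1, Cd163 and Itgam) than in both poor libraries, beside 5.82%. Without curcumin-treated 2 the latter count was 12, while that over all genes rose from 1103 to 1431. Adgre1, which encodes the F4/80 antigen, was at 7.03, 6.52 and 4.36 CPM in the rich libraries, 15.1 in curcumin-treated 1 and 230 in diabetes 2. Cx3cr1, a chemokine receptor of macrophages that tile epithelia, was instead at 18.7, 9.82 and 18.5 CPM against 2.01 in diabetes 2 and 6.00 in curcumin-treated 1. Of 14 genes of lipid-associated macrophages, 5 were lower, beside the same 5.82%, and 11 against diabetes 2 alone, beside the same 14.8%. Among the 5 was Mmp12, an elastase, at 0.703, 0.629 and 1.32 CPM against 402 in diabetes 2 and 34.9 in curcumin-treated 1. Atp6v0d2 of that list, also a proton pump gene, was at 80.7, 79.1 and 54.3 CPM in the rich libraries, 176 in diabetes 2 and 8.20 in curcumin-treated 1.

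The T and natural killer cell list held few separated genes, and Klrb1c went the other way. Of 20 members 2, Cd247 and Il7r, were lower in the rich libraries, beside 5.82% of all genes, and 1, Klrb1c, was higher, beside 8.04%. Klrb1c, which encodes the NK1.1 receptor, was at 217, 203 and 299 CPM against 1.73 in diabetes 2 and 1.08 in curcumin-treated 1. The T cell genes Cd3d, Cd3e and Cd3g were at most 2.12 CPM in the rich libraries, and the natural killer cell gene Ncr1 at most 0.354. Leaving out a library can only keep or raise such counts, since the filter stays on all 5. For this list the count lower was 5 without either poor library and 6 without curcumin-treated 2. Over all genes it rose from 1103 to 2143 without diabetes 2, 2814 without curcumin-treated 1 and 1431 without curcumin-treated 2. Of 14 B and plasma cell genes 4 were lower, beside 5.82% of all genes. They were led by Ighm, the heavy chain of immunoglobulin M, at 5.55, 2.04 and 20.3 CPM against 1005 and 208. Of 10 class II antigen presentation genes 4 were lower, beside 5.82% of all genes, and 7 against diabetes 2 alone, beside 14.8%. Among the 4 was Cd74, the invariant chain, at 105, 116 and 204 CPM against 873 and 611. Within the rich set curcumin-treated 2 was highest for Cd74 and Ighm.

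Smooth muscle genes set the poor libraries apart from each other. Of 18 members 15 were lower in the rich libraries than in curcumin-treated 1, beside 11.3% of all genes, whereas 6 were higher and 4 lower than in diabetes 2, beside 20.1% and 14.8% of all genes. The list took 6.38% of counts in curcumin-treated 1 (6.38% to 6.39%) and 0.176% to 0.324% in the other 4 libraries. Myh11, the smooth muscle myosin, was at 318, 117 and 185 CPM in the rich libraries, 37.4 in diabetes 2 and 13342 in curcumin-treated 1. Actg2, the actin of visceral smooth muscle, was at 1363, 1035 and 1225 CPM in the rich libraries, 5538 in curcumin-treated 1 and 0.315 in diabetes 2. Synpo2 and Cspg4 were among the 3 members lower in the rich libraries than in both poor ones, beside 5.82% of all genes.

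Matrix and stromal genes were partly lower. Of 22 genes of fibroblasts and adipose progenitors 8 were lower, beside 5.82% of all genes, and none higher. Against diabetes 2 alone 13 were lower, beside 14.8% of all genes, and against curcumin-treated 1 alone 9, beside 11.3%, with 1 higher in each. Without curcumin-treated 2, 14 were lower, while that count over all genes rose from 1103 to 1431. Among the 8 was Dpt, at 6.73, 2.44 and 6.62 CPM against 360 and 80.4. Col6a3, a chain of collagen VI, was at 21.98, 5.30 and 15.4 CPM against 272 and 195. Fn1, fibronectin, crossed the split, at 19.1 and 13.4 CPM in control 1 and diabetes 1, 1128 in curcumin-treated 2, 474 in diabetes 2 and 460 in curcumin-treated 1. Col1a1 did the same, at 87.5, 33.6 and 947 CPM in the rich libraries against 312 and 311, so curcumin-treated 2 exceeded both poor libraries for these genes. Pdgfra, a receptor of mesenchymal cells, was at 160, 145 and 136 CPM in the rich libraries against 79.1 and 32.6.

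Of 15 endothelial genes only Cldn5, a tight junction protein of vessels, was separated, at 25.9, 4.24 and 11.2 CPM against 73.7 and 71.0, beside 5.82% of all genes lower. Without control 1, 7 were lower, while that count over all genes rose from 1103 to 1519. Against diabetes 2 alone 6 were lower, beside 14.8% of all genes, and against curcumin-treated 1 alone 1, beside 11.3%. The mesothelial list of 10 split, with Upk3b, Wt1 and Cldn15 lower and 1 gene higher, beside 5.82% and 8.04% of all genes. The higher gene was Upk1b, a uroplakin also made by other epithelia, at 81.2, 103 and 89.5 CPM against 2.21 and 1.44. The nerve list of 12 split too, with 2 genes higher and 1 lower, beside 8.04% and 5.82% of all genes. Against diabetes 2 alone 6 were higher and 1 lower, beside 20.1% and 14.8% of all genes, with a median of 1.20. Against curcumin-treated 1 alone 2 were higher and 5 lower, beside 9.39% and 11.3%, with a median of -1.53. Egr2, a transcription factor of myelinating Schwann cells and of other cells, was higher at 253, 270 and 221 CPM against 25.9 and 25.3, and Ncmap was also higher, while Mbp, the myelin basic protein, was lower at 6.29, 7.15 and 6.98 CPM against 37.4 and 50.8. The Schwann cell factor Sox10 was at most 0.566 CPM in the rich libraries and 13.3 in curcumin-treated 1.

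Controls for other tissues stayed low or did not follow the split. No red blood cell gene was separated, and 4 of 7 were lower than in diabetes 2 alone, beside 14.8% of all genes. Of 12 skeletal muscle genes 6 passed the filter on low values. Of the 12, 1, Myh1, was separated, beside 8.04% of all genes higher, at 2.18, 2.44 and 4.95 CPM against 0.158 and 0.0719. Of 16 genes of liver, pancreas and kidney 4 passed the filter. Of the 16, 1, Alb, was separated, beside 5.82% of all genes lower, at 0, 0.236 and 0 CPM against 12.1 and 1.65. Ckm and Acta1, striated muscle genes, were highest in curcumin-treated 1, at 295 and 1069 CPM.

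**Figure D5:**
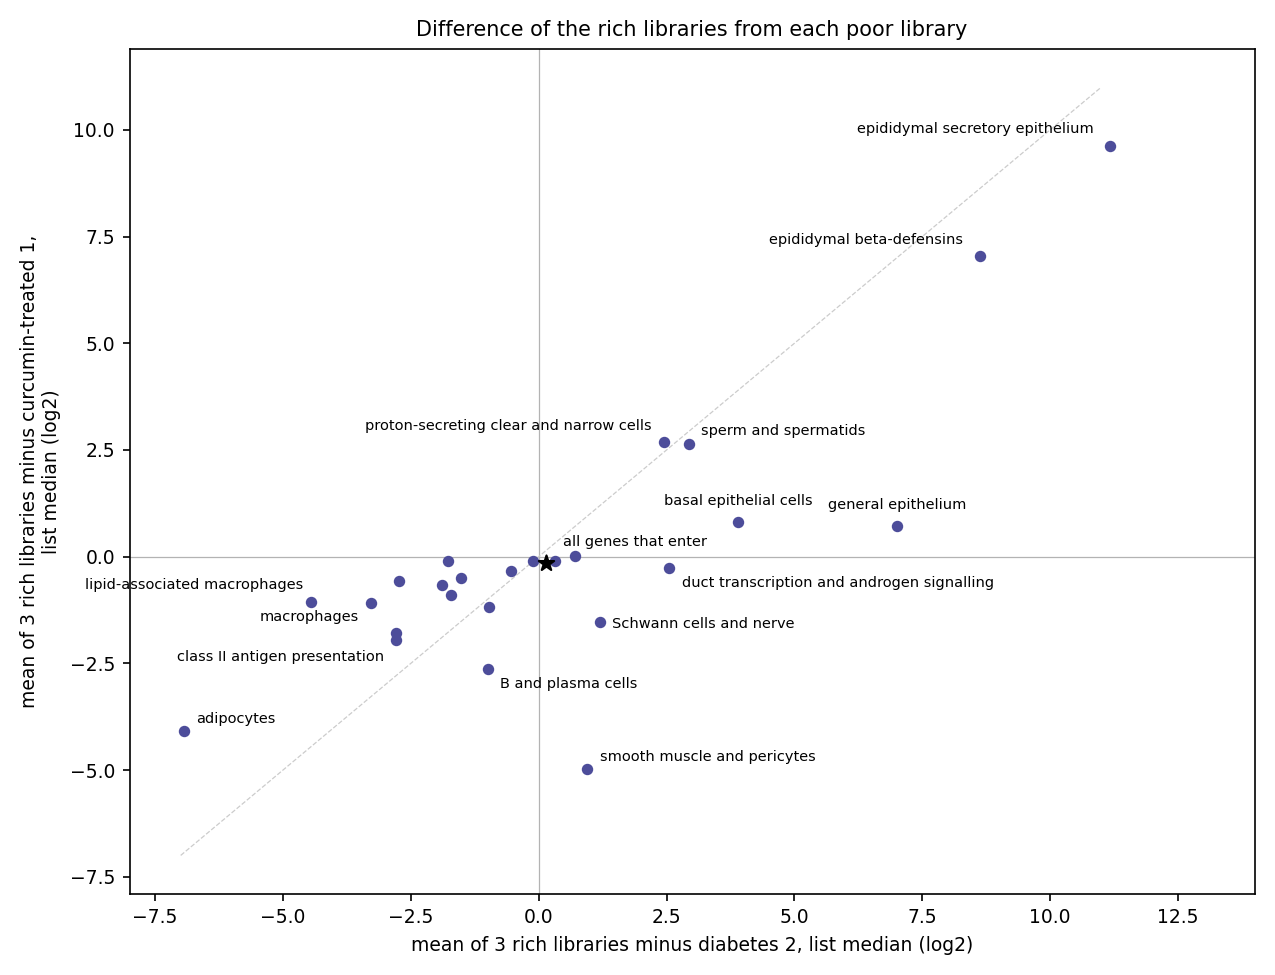
Median difference of each gene list (log2 of CPM with 0.5 added) between the mean of the 3 rich libraries and diabetes 2 (x axis) and between the same mean and curcumin-treated 1 (y axis); the star is the median of all genes that entered and the dashed line marks equal differences. Epididymal lists are high and adipocytes low on both axes, general epithelium is high on the x axis only, and smooth muscle is low on the y axis only.

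Diabetes and curcumin-treated diabetes each hold a library of both sets. Diabetes 1 minus diabetes 2 gave a median of 11.07 for the secretory list, 8.68 for the defensins, 7.35 for general epithelium and -7.81 for adipocytes. Curcumin-treated 2 minus curcumin-treated 1 gave 9.38, 6.73, 0.54 and -4.31 for those lists. Smooth muscle was at 0.03 in the first pair and -4.77 in the second, where it was further from 0 than adipocytes, and sperm genes at 2.88 and 2.96. The pairs share no library, each has 1 library a side, and the difference between them was not tested.

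The mitochondrial gene mt-Co1 was among the 3 highest genes of 4 libraries. Its nearest rich and poor values were within 1.01-fold, at 13182, 13706 and 11273 CPM in the rich libraries against 13779 and 15643. ENSMUSG00000139891, which has no symbol in the table used, was at 11611, 11536 and 16816 CPM in the rich libraries, 78.5 in diabetes 2 and 5319 in curcumin-treated 1, a gap of 2.17 times. Of the 1395 genes without a symbol that entered, 261 (18.7%) were higher in the rich libraries and 23 (1.65%) lower, beside 8.04% and 5.82% of all genes. The libraries also differed in how many genes had 1 to 5 counts, from 1292 in diabetes 1 to 19751 in curcumin-treated 1, with 4216 in control 1, 8960 in curcumin-treated 2 and 10411 in diabetes 2. Both poor libraries had more such genes than any rich one, and the part of this in the low values was not tested.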

How the data were processed

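Per the labels' protocols, libraries came from a stranded poly-A kit with paired-end reads. The table deposited by the authors holds unnormalised counts of 78334 Ensembl genes in 5 libraries, made with featureCounts on GRCm39 per the submitters' processing notes, which also name FastQC. Which aligner, annotation release and strand setting were used is not given in the sources used here. Whether reads of overlapping antisense genes were kept apart in the counting is therefore not known. Gene IDs gave a symbol for 51486 genes (65.7%), with 95.3% to 98.5% of counts.

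Counts were scaled to library totals (25378046 to 42422890). Calls, ranks by gap and log2 differences used CPM plus 0.5; printed gaps are plain CPM ratios. A fold against a set with 1 to 3 counts carries a Poisson interval, and shares carry 95% Wilson intervals; both cover counting error only, since reads have no molecular identifiers. No test was run, because the libraries were split by a value measured in them. The parts, 25 gene lists (405 genes, all found) and markers were chosen with earlier results of these data known. Named genes were the 12 per direction ranked highest by gap with at least 10 CPM in every library of the higher set, the 5 markers, up to 4 separated members per list, and the 3 highest genes per library; other list members were chosen after their values were seen, as were Clu, Akr1b3, Akr1b8 and Akr1b10. Some list members are counted but not reported here by name. The gap rule was checked on simulated counts.

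Alternatives were edgeR 4.0.16 TMM factors, DESeq2 1.42.0 size factors, totals without epididymal, defensin and sperm genes, other filters, pseudocounts and gaps, and leaving out each library. Leaving out a library keeps the filter on all 5; it was first computed with the filter on the 4 left, and both are given. Promoters came from RefSeq on GRCm38.p6; no coordinates were taken from the counts' build.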

Additional observations from a re-analysis of the deposited data

Results flagged for a closer look

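The Schwann cell and nerve list and the genes Akr1b7, Myh11 and Crisp1 went opposite ways in the 2 treatment groups that hold a rich and a poor library. Each difference rests on 1 library a side and was not tested. All values are rich minus poor on the log2 scale of CPM with 0.5 added.

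For the Schwann cell and nerve list, the median was 1.37 in diabetes and -1.52 in curcumin-treated diabetes. Akr1b7, the aldo-keto reductase, differed by 3.55 in diabetes, where both libraries were under 7 CPM, and by -14.77 in curcumin-treated diabetes. Myh11, the smooth muscle myosin, differed by 1.63 and -6.17. Crisp1, the secreted sperm-binding protein, differed by 11.73 and -4.16. In all 4 the negative value comes from the pair that holds curcumin-treated 1.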

How the results depend on the processing

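Lcn8, Lcn5, Spag11b and Crisp4, cut at 100 CPM, each gave the same 3 rich libraries. These markers were chosen with earlier results of these data known, so that is no independent check. Cuts of Gpx5 itself at 100 or 10000 CPM had to give the same libraries, since none lies between 19.6 and 29812 CPM. The counts of 1523 genes higher and 1103 lower became 728 and 316 with a gap of 4 times and 4279 and 4386 with any gap, by the construction of those rules. Other scalings, filters and pseudocounts kept both counts within 1.5 times, but totals without epididymal, defensin and sperm genes moved the higher calls from 58.0% to 65.2% of all calls (1742 and 928 genes). Leaving out a library gave 1687 to 3813 higher and 1265 to 2814 lower, the highest of both without curcumin-treated 1. Without diabetes 2, 1779 were higher and 2143 lower. With the filter on the 4 libraries left, a choice added after seeing the data, these ranges were 1626 to 3792 and 1261 to 2483 (1894 lower without diabetes 2).

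Of 250 list medians under 10 other settings, 173 kept their sign and stayed within the spread of the rich libraries, 69 kept their sign and moved further, and 8 turned. Without curcumin-treated 1, smooth muscle turned to 0.95 (lowest -4.98, without diabetes 2) and Schwann cells to 1.20 (lowest -1.53, without diabetes 2). Without that same library 24 of 24 general epithelial genes were higher, beside 20.1% of all genes. Without diabetes 2, duct transcription turned to -0.265 (highest 2.56, without curcumin-treated 1). Skeletal muscle turned to -0.20 without curcumin-treated 2 (highest 0.71, without curcumin-treated 1). The Leydig and Sertoli median, 0.02, was -0.004 with a pseudocount of 2 and -0.097 to 0.31 when a library was left out. The median of all genes, -0.01, was 0.033 with TMM, 0.15 with totals without the epididymal genes and -0.141 to 0.152 when a library was left out. The cause was not tested. No paired test was run. Diabetes and curcumin-treated diabetes each hold 1 rich and 1 poor library, and the control group has no poor one. The differences within the treatment groups are values only. Genes under 3 counts in a library cannot be told from 0.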
